A study of Mus musculus with 2 samples.

Results

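The expression of 10 chemokine genes was followed through the immune cells of lymph nodes, gene by gene and cell by cell: Cxcl10, Cxcl9, Cxcl2, Ccl3, Ccl4, Ccl8, Ccl12, Ccl17, Ccl22 and Xcl1. They were chosen by symbol, and all 10 of the 10 symbols were found among the 27933 symbols of the gene list. The allogeneic library came from BALB/c mice that had received a heart from a C57BL/6 donor, and the syngeneic library from BALB/c mice that had received a BALB/c heart. Both labels give an age of 6 to 8 weeks and lymph node immune cells, and each group had 1 droplet-based single-cell library. The number of mice behind a library, the time after grafting and any drug treatment are not given in the sources used here. With 1 library a group there was no replicate and no test, so every interval below is an exact 95% interval that covers counting error only.

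Chemokines are small secreted proteins that direct the migration of cells carrying the matching receptor. In a lymph node they bring T cells together with antigen-presenting cells and recruit monocytes, neutrophils and natural killer (NK) cells during inflammation. The set holds ligands of CXCR3 (Cxcl10, Cxcl9), of CXCR2 (Cxcl2), of CCR4 (Ccl17, Ccl22) and of XCR1 (Xcl1), 2 macrophage inflammatory protein genes (Ccl3, Ccl4) and 2 monocyte chemoattractant genes (Ccl8, Ccl12).

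Levels are unique molecular identifiers (UMIs), each standing for 1 captured transcript, and CPM, the UMIs of a gene scaled to 1000000 UMIs of the cells named. The allogeneic library held 3500 barcodes and 8415043 UMIs, of which 2033 barcodes (58.1%) were kept, and the syngeneic library held 7967 barcodes and 46486632 UMIs, of which 7951 (99.8%) were kept. The kept cells had medians of 3100 (allogeneic) and 4917 (syngeneic) UMIs, and the shallowest kept barcode had 228 and 3447 UMIs, so the syngeneic barcode list has no shallow cells. A floor of 3 UMIs equals 0.431 CPM of the kept allogeneic cells and 0.0647 CPM of the kept syngeneic cells. The libraries share 66 barcode sequences, of which 25 were kept in both. Haemoglobin genes took 0.459% of the kept allogeneic UMIs and 0.00426% of the kept syngeneic UMIs.

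Cells were sorted into classes by marker genes that include no chemokine of the set. A barcode entered a lineage with at least 3 marker UMIs from at least 2 genes and at least 75% of its lineage marker UMIs in that lineage. Other barcodes with at least 3 marker UMIs were kept apart as mixed. The macrophage, monocyte, dendritic and neutrophil lists counted together as a single myeloid lineage. A myeloid barcode went to the list with the most UMIs, with no purity rule between these lists, so barcodes with markers of several myeloid classes were not set aside. The gates gave 30 allogeneic and 2 syngeneic macrophages. In the same order there were 19 and 12 monocytes, 13 and 51 dendritic cells, 24 and 2 neutrophils, and 1 and 16 NK cells. They also gave 360 and 2335 CD8 T cells, 215 and 896 activated T cells (at least 2 of 8 activation genes such as Cd69 and Nr4a1), 633 and 2571 other T cells, mostly CD4 or unresolved, and 337 and 1241 B cells. Mixed barcodes numbered 191 and 790.

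The marker check set limits on some names. Allogeneic macrophage-gated cells were shallow, with a median of 524 UMIs. C1qa, C1qb and C1qc, the complement genes that mark tissue macrophages, led their genes, but Vsig4, Cd5l, Siglec1, Mrc1 and Adgre1 were at 0, and 6 of 13 macrophage markers were seen in at least 10% of cells. The dendritic gate was led by Fscn1 and Cacnb3, genes of migratory dendritic cells, with Xcr1 and Clec9a at 0 in the 13 allogeneic cells and in 7.84% and 5.88% of the 51 syngeneic cells. The C1q genes, Fscn1 and Cacnb3 are themselves markers of these gates, so their high levels there are partly set by the gate. The monocyte gates held unlike cells: Chil3 stood at 3128 CPM in the allogeneic and 55.7 CPM in the syngeneic gate, and the granulocyte-progenitor genes Mpo and Ms4a3 were among the leading genes of the allogeneic gate.

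Over all kept cells, 5 of the 10 chemokines were more than 2-fold higher in the allogeneic library (Cxcl10, Cxcl2, Ccl3, Ccl8 and Ccl12), against 13.9% of all 13190 genes with at least 10 UMIs. Cxcl9, Ccl22 and Xcl1 were more than 2-fold lower, against 6.25% of all genes, while Ccl4 and Ccl17 stayed within 2-fold. At equal depth per cell the Cxcl9 ratio had the other sign, but from 1 allogeneic UMI and with an interval that included 0. The median log2 ratio was 1.54 for the 10 chemokines and 0.10 for all genes. These sums join cells of every class, and in them more cells of a type and more RNA per cell cannot be told apart. The plot of UMIs by class shows where each gene was found.

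**Figure D1:**
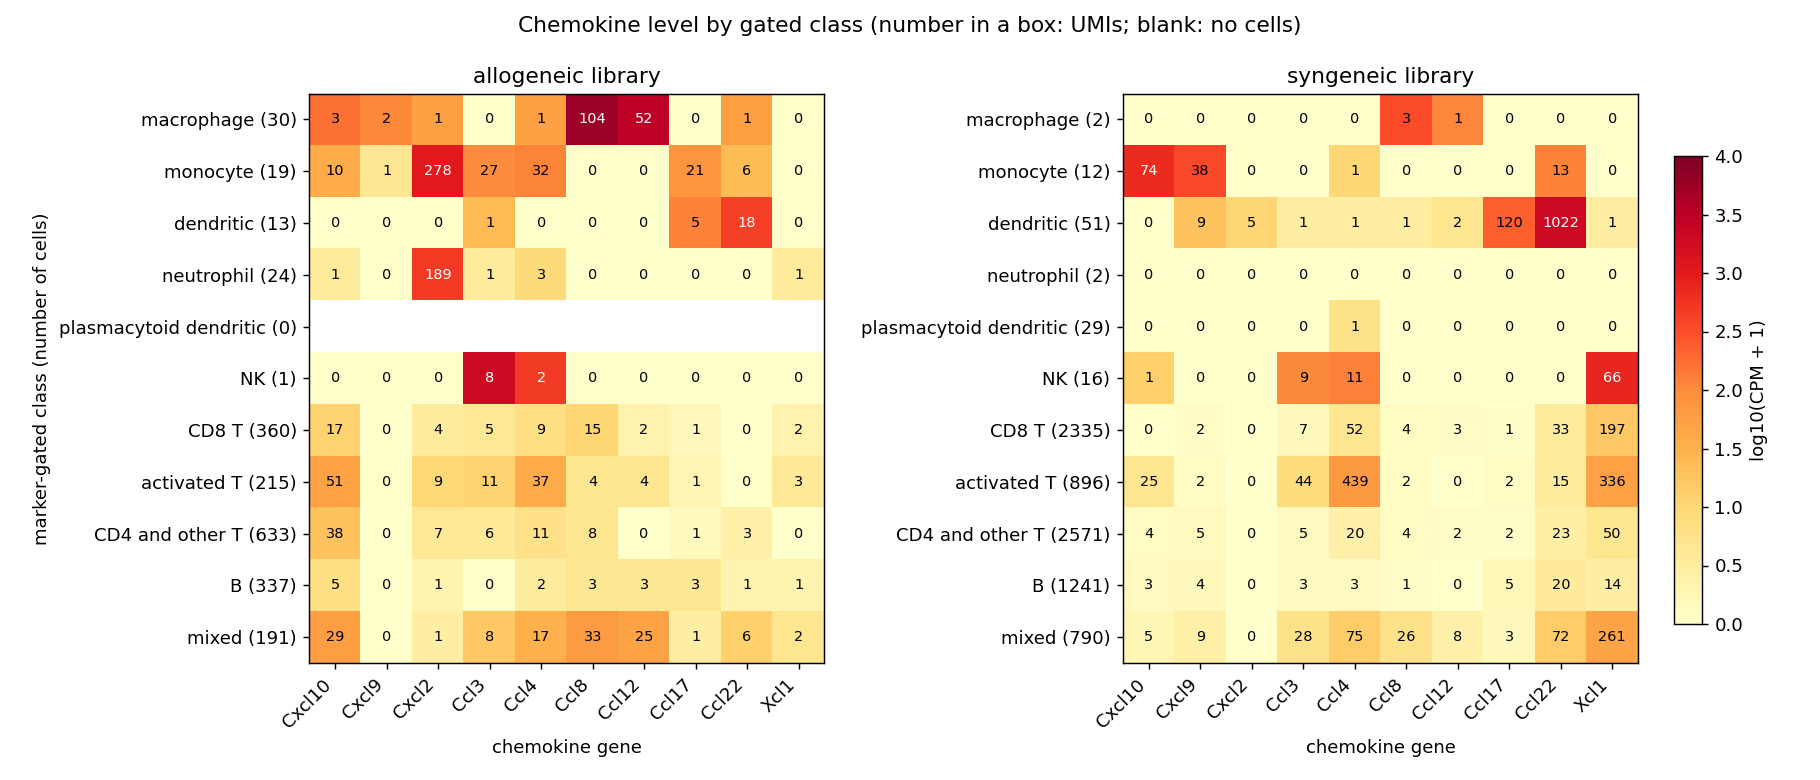
Chemokine level in each marker-gated class (rows, with the number of cells) for each gene (columns), allogeneic library on the left and syngeneic library on the right. Colour is log10(CPM + 1) and the number in a box is the UMI sum: Ccl8 reached 104 UMIs in allogeneic macrophages and Ccl22 reached 1022 UMIs in syngeneic dendritic cells.

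A class was read as above background when it held at least 3 UMIs in at least 2 cells and the lower bound of its ratio to a background class of the same library exceeded 3-fold. The background class was B cells for Cxcl10, Cxcl9, Cxcl2, Ccl8, Ccl12, Ccl17 and Xcl1, and other T cells for Ccl3, Ccl4 and Ccl22. By this rule 24 combinations of gene, class and library stood above background, without counting the mixed and unassigned barcodes. Since free RNA in a droplet sample adds UMIs of 1 source to every class in a like ratio, chemokine UMIs were also set against marker UMIs of the likely source.

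Cxcl10 (ENSMUSG00000034855, chr5:92346638-92348889, GRCm38) encodes an interferon-induced ligand of CXCR3 that attracts effector T cells. Its largest UMI sum lay in activated T cells in the allogeneic library and in monocytes in the syngeneic library. In the allogeneic library 158 UMIs gave 22.7 CPM (19.3 to 26.5), against 112 UMIs and 2.42 CPM (1.99 to 2.91) in the syngeneic library. The log2 ratio over all kept cells was 3.23 (2.87 to 3.60), or 3.89 without the highest cell of each library. Its RefSeq promoter (GRCm38.p6, minus strand, chr5:92348890-92349139, the 250 bases before the start) is shown because it is the single promoter of the set with the interferon-response-type motif (GAAA, any 2 bases, GAAA), capitalised here. The Cxcl9 promoter (minus strand, chr5:92328080-92328329), from the neighbouring CXCR3 ligand gene, is set beside it and holds no match to that motif.
Cxcl10: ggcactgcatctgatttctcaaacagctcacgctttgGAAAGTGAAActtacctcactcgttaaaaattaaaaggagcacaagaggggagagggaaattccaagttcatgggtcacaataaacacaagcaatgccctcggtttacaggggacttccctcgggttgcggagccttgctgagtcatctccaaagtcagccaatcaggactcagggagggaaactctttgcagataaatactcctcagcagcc
Cxcl9: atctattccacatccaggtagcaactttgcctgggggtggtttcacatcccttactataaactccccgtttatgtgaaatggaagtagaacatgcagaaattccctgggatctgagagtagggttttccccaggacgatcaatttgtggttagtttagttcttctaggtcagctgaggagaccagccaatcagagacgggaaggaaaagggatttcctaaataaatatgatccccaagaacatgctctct
The match starts 213 bases before the gene start. Searched on both strands of all 32851 promoters of 300 bases, this motif occurred in 3.44%. RefSeq promoters were at hand for 9 of the 10 genes, all but Ccl4.

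T cells held most of the Cxcl10 UMIs of the allogeneic library that fell in a named class, and they were also most of the cells in those classes. By level, the intervals of allogeneic macrophages and monocytes overlapped that of activated T cells. Macrophages had the higher point level, 165 CPM, from only 3 UMIs, and the monocyte level is given below. Activated T cells had 51 UMIs in 15 of 215 cells, 49.4 CPM (36.8 to 65.0), against 5 UMIs in 4 of 337 B cells and 5.84 CPM (1.90 to 13.6). That is 8.46-fold over the B cell background (3.40 to 27.2). Without the highest cell of each class the level was 33.2 CPM, and the lower bound no longer exceeded 3-fold, nor did it at a gate purity of 90%. The other T cells had 38 UMIs in 11 of 633 cells, of which 27 were in a single cell and their level of 17.6 CPM was 3.02-fold over background (1.19 to 9.84), or 5.12 CPM without that cell. CD8 T cells had 17 UMIs in 10 of 360 cells, 1.91-fold (0.675 to 6.61) over background.

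In all, 8 allogeneic T cells carried 3 or more Cxcl10 UMIs, and together they held 75 UMIs, whereas 31 UMIs were spread over 28 of the 1200 remaining T cells. The 8 cells had 27, 17, 9, 7, 5, 4, 3 and 3 UMIs, and 0 of the 8 had a UMI of a macrophage marker and 1, the cell with 7 Cxcl10 UMIs, had 5 monocyte-marker UMIs. Macrophage markers were seen in 59 and monocyte markers in 116 of the 1200 remaining T cells, so 8 cells are too few to set these shares apart. In activated T cells with a CD8 gene and no Cd4 the level was 101.1 CPM (41 UMIs in 11 of 82 cells), and in those with Cd4 alone a single UMI was found in 50 cells. A list of 12 interferon-induced genes had a median of 67.2 UMIs per 10000 in the 8 cells (range 20.1 to 112.6), against 20.2 in the remaining allogeneic T cells. These cells were picked for their Cxcl10, so the contrast is a description.

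The C1q genes served as macrophage tracer for Cxcl10 and Ccl8. They are themselves macrophage markers of the gate, which selects for them in macrophages and limits them in lymphocytes. Differences between classes in these ratios are therefore partly set by the gate. Per 100 C1q UMIs, Cxcl10 stood at 850 (365 to 2424) in allogeneic activated T cells, 271 (144 to 542) in other T cells and 100 (48.0 to 208) in CD8 T cells, against 1.02 (0.210 to 3.02) in macrophages. Ccl8 stood at 66.7 (13.8 to 281), 57.1 (20.8 to 146) and 88.2 (41.0 to 188) per 100 C1q UMIs in those T cell classes, against 35.5 (28.1 to 44.5) in macrophages. The Cxcl10 intervals of all 3 T cell classes lay above that of the macrophages, and the Ccl8 intervals of all 3 overlapped it. This was not particular to T cells: allogeneic B cells had Cxcl10 at 35.7 (10.1 to 105), also above macrophages and overlapping CD8 T cells, and monocytes had it at 333 (85.8 to 1885). Macrophages themselves passed the background rule for Cxcl10 with only 3 UMIs in 2 of 30 cells, 28.3-fold over B cells (4.40 to 145), and without the higher of them 1 UMI was left.

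**Figure D2:**
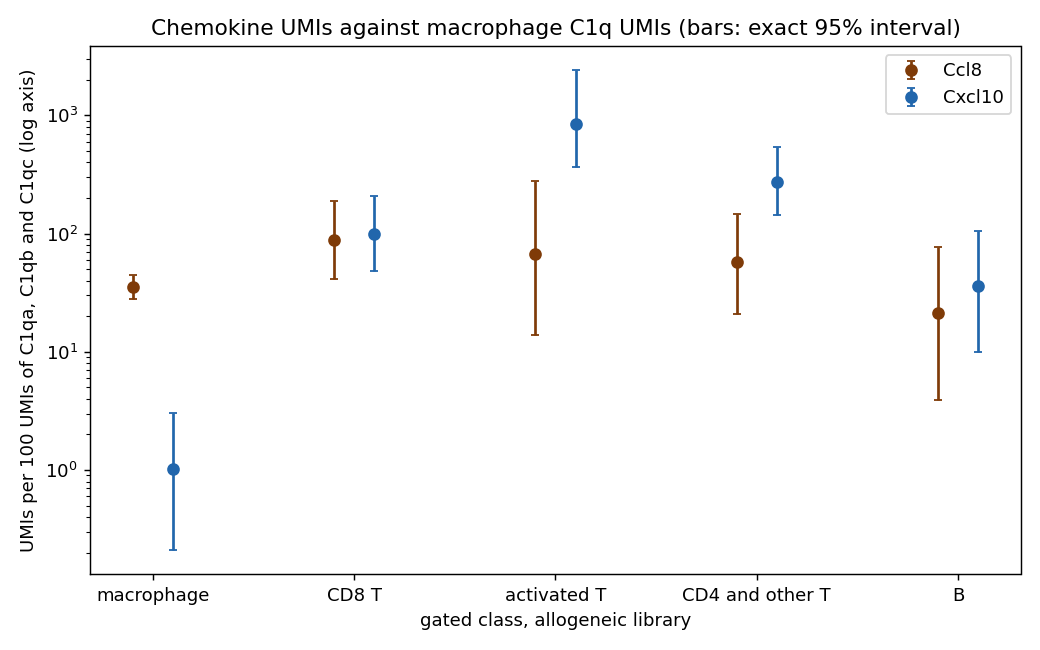
UMIs of Ccl8 and Cxcl10 per 100 UMIs of C1qa, C1qb and C1qc (log axis) in 5 gated classes of the allogeneic library, with exact 95% intervals. Ccl8 lies between 21.4 and 88.2 in every class, while Cxcl10 goes from 1.02 in macrophages to 850 in activated T cells.

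In the syngeneic library Cxcl10 lay mainly in monocytes. The 12 syngeneic monocytes held 74 of its 112 UMIs, 686 CPM (539 to 862), in 3 cells with 53, 15 and 6 UMIs, and the 19 allogeneic monocytes held 10 UMIs, 36.5 CPM (17.5 to 67.1), in 2 cells with 8 and 2. Without its highest cell the syngeneic monocyte level was 215 CPM. Syngeneic activated T cells had 25 UMIs in 11 of 896 cells, 3.86 CPM (2.50 to 5.70), of which 14 were in a single cell that also had 2 macrophage-marker UMIs. B cells of that library stood at 0.401 CPM. Syngeneic activated T cells did not pass the background rule in the main setting. They passed it at a gate purity of 60%, with 3 or more activation genes, and without mitochondrial, ribosomal protein and haemoglobin genes. None of the 2335 syngeneic CD8 T cells had a Cxcl10 UMI.

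Within T cell classes, as in the B cells used as background, Cxcl10 was higher in the allogeneic library. The log2 ratio was 3.68 (2.96 to 4.43) in activated T cells and 5.84 (4.37 to 7.79) in other T cells, with 49.4 against 3.86 CPM and 17.6 against 0.307 CPM in the allogeneic and syngeneic libraries. In CD8 T cells the 17 allogeneic UMIs against 0 syngeneic UMIs gave a log2 ratio with an exact 95% lower bound of 5.12. Background moved too, with 5.84 CPM in allogeneic against 0.401 CPM in syngeneic B cells.

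Cxcl9 (ENSMUSG00000029417, chr5:92321347-92328079), the interferon-gamma-induced ligand of the same receptor, was rare in the allogeneic library. The allogeneic library held 3 UMIs in 3 cells, 0.431 CPM (0.0889 to 1.26), against 69 UMIs in 28 cells and 1.49 CPM (1.16 to 1.88) in the syngeneic library, a log2 ratio of -1.79 (-4.10 to -0.18). The direction turned when each cell was thinned to 500 UMIs, with a log2 ratio of 0.53 (-5.19 to 4.17). Of the 3 allogeneic UMIs, 2 were in macrophages and 1 in a monocyte. In the syngeneic library 5 of 12 monocytes held 38 UMIs, 352.5 CPM (249 to 484), with 11 in the highest cell, and 6 of 51 dendritic cells held 9 UMIs, 17.7 CPM (8.09 to 33.6), against 0.534 CPM in B cells. The dendritic-gated cell with 3 of those 9 UMIs had 24 dendritic-marker and 22 monocyte-marker UMIs. None of the allogeneic cells gated as T cells had a Cxcl9 UMI. Cells with both genes numbered 1 in the allogeneic library, 1.69% of the Cxcl10 cells and 33.3% of the Cxcl9 cells, and 4 in the syngeneic library, 17.4% and 14.3%.

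Cxcl2 (ENSMUSG00000058427, chr5:90903871-90905938), which attracts neutrophils through CXCR2, had the highest ratio of the set. The allogeneic library held 493 UMIs, 70.8 CPM (64.7 to 77.4), against 5 UMIs, 0.108 CPM (0.0350 to 0.252), in the syngeneic library, a log2 ratio of 9.36 (8.13 to 11.0). The 250 bases before its RefSeq start (GRCm38.p6, plus strand, chr5:90903649-90903898) are shown because they hold 2 matches to an NF-kB-type motif (GGG, any 2 bases, TTTCC) found in 1.63% of all promoters, and the matches are capitalised.
Cxcl2: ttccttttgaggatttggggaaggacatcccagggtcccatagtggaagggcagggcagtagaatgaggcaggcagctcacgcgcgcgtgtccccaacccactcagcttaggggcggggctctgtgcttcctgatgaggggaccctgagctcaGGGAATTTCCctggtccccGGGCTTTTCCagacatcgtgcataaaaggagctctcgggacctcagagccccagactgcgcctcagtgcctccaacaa
The matches start 97 and 78 bases before that RefSeq start, which lies inside the gene coordinates given above. No other promoter of the set held this motif. Ccl17 had the STAT-type motif (TTC, any 3 bases, GAA) 99 bases before its start, a motif found in 8.30% of all promoters. A match describes letters in a window and no more.

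Of the Cxcl2 UMIs, 278 lay in 5 of 19 allogeneic monocytes, 1015 CPM (899 to 1141), and 189 in 12 of 24 allogeneic neutrophils, 496 CPM (428 to 573). The monocyte sum came mostly from cells with 192, 66 and 17 UMIs, and its level was 343 CPM without the highest cell. The cells with 192 and 66 UMIs had 157 and 194 monocyte-marker UMIs and also 40 and 34 neutrophil-marker UMIs. Neutrophils were more even, with 59 and 55 UMIs in the highest 2 cells and 355 CPM without the highest. B cells of that library held 1 UMI in 337 cells, 1.17 CPM, at a median of 2310 UMIs per cell against 15288 in the monocytes and 16056 in the neutrophils. The syngeneic library had 2 neutrophils and 0 Cxcl2 UMIs in them and in its 12 monocytes, and all of its 5 UMIs lay in 4 dendritic cells. The number of gated neutrophils moved with this ratio, 24 in the allogeneic against 2 in the syngeneic library, and its part in the ratio was not tested.

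Allogeneic T cells also held a few Cxcl2 UMIs, 9 in activated T, 7 in other T and 4 in CD8 T cells, and none had more than 2 in a cell. Per 100 UMIs of S100a8 and S100a9, the abundant neutrophil genes, Cxcl2 stood at 0.949 (0.433 to 1.81) in activated T cells, 0.333 (0.134 to 0.687) in other T cells and 0.281 (0.0765 to 0.722) in CD8 T cells. Those intervals lie between or across the values of monocytes, 1.32 (1.17 to 1.48), and neutrophils, 0.190 (0.164 to 0.219).

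**Figure D3:**
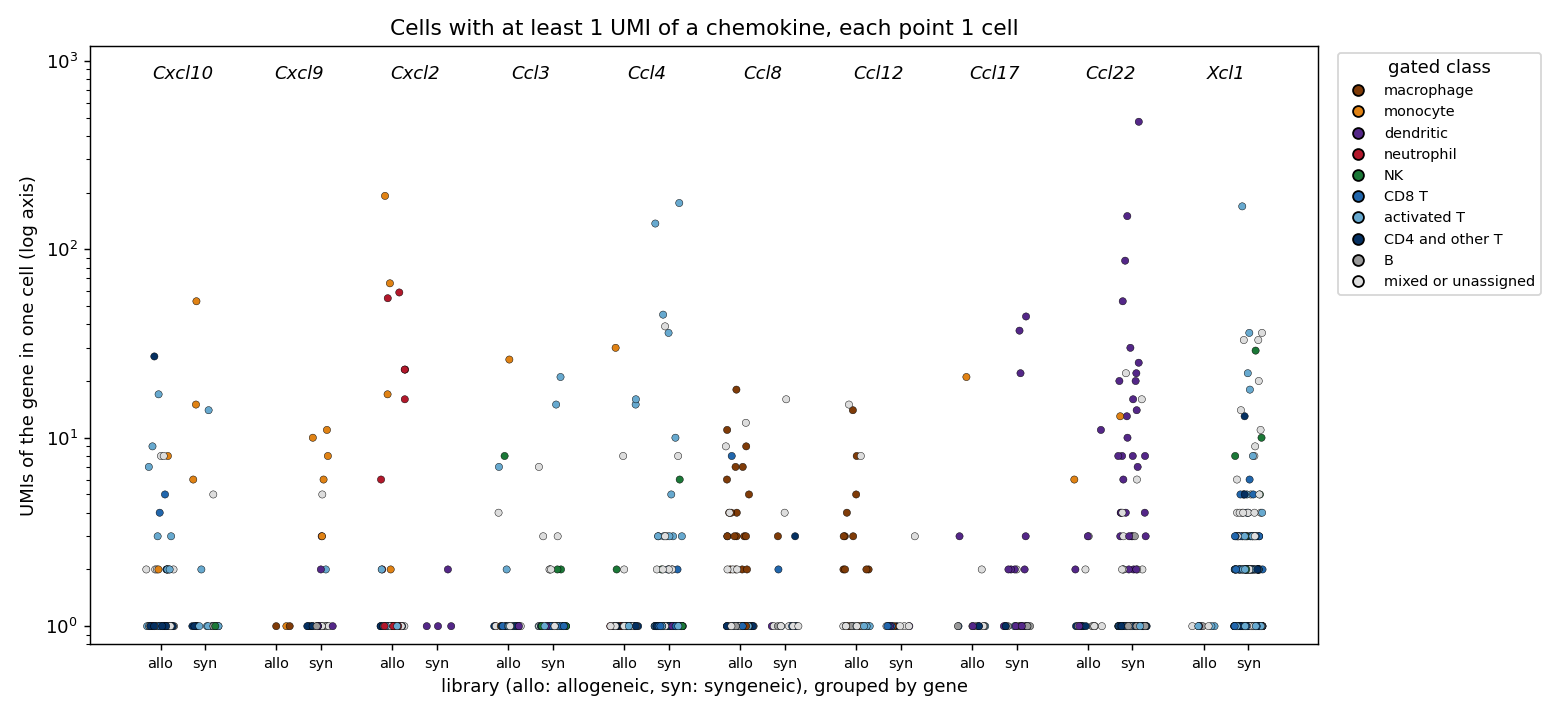
Every kept cell with at least 1 UMI of a chemokine, with the UMIs in that cell on a log axis, by gene and by library (allogeneic left of syngeneic within each gene) and coloured by gated class. Most points lie at 1 UMI, and single cells reach 192 UMIs of Cxcl2 (allogeneic monocyte), 475 of Ccl22 (syngeneic dendritic) and 176 of Ccl4 and 169 of Xcl1 (syngeneic activated T).

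Ccl3 and Ccl4 (ENSMUSG00000000982, chr11:83647844-83649355, and ENSMUSG00000018930, chr11:83662584-83664683) are neighbouring genes for inflammatory chemokines that activated lymphocytes and myeloid cells release. Ccl3 stood at 9.77 CPM (7.59 to 12.4) in the allogeneic and 2.09 CPM (1.70 to 2.55) in the syngeneic library, and Ccl4 at 16.7 CPM (13.8 to 19.99) and 13 CPM (11.99 to 14.1). The log2 ratios were 2.22 (1.76 to 2.69) for Ccl3 and 0.36 (0.06 to 0.65) for Ccl4. Few cells carried either gene at a high number.

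In the allogeneic library a single monocyte held 26 of the 27 monocyte UMIs of Ccl3 and 30 of the 32 of Ccl4, and without the highest cell the monocyte levels were 3.95 and 7.91 CPM, no longer above background. The other allogeneic cells with at least 7 UMIs of either gene were 2 activated T cells, with 15 and 16 Ccl4 UMIs, the single NK cell, with 8 Ccl3 UMIs, and a mixed barcode with 8 Ccl4 UMIs. Allogeneic activated T cells had 37 Ccl4 UMIs, 35.8 CPM (25.2 to 49.4), against 5.11 CPM in the other T cells used as background, and 20.5 CPM without the highest cell, when the class no longer passed the background rule.

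In the syngeneic library activated T cells held 44 of 97 Ccl3 UMIs and 439 of 603 Ccl4 UMIs, in 10 and 24 of 896 cells. Their Ccl4 level was 67.8 CPM (61.6 to 74.5), against 1.54 CPM in other T cells. A pair of cells carried 176 and 137 of those Ccl4 UMIs and also 21 and 15 Ccl3 UMIs. The CD8-gene part of that class held 427 of the Ccl4 UMIs in 16 of 440 cells, and the part with Cd4 alone held 0 in 174 cells. NK cells, which release both chemokines, had Ccl3 in 7 of 16 cells, 103 CPM (47.2 to 196), and Ccl4 in 5, 126 CPM (63.0 to 226). Both genes were seen in 6 allogeneic cells, 23.1% of the Ccl3 and 12.2% of the Ccl4 cells, and in 16 syngeneic cells, 33.3% and 12.8%.

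The 2 genes had different ratios within T cell classes, and the difference between genes was not tested. In activated T cells the log2 ratio was 0.65 (-0.45 to 1.63) for Ccl3 and -0.92 (-1.44 to -0.43) for Ccl4. In CD8 T cells it was 2.59 (0.59 to 4.46) for Ccl3 and 0.54 (-0.66 to 1.58) for Ccl4, and in other T cells 2.86 (0.88 to 4.91) and 1.73 (0.52 to 2.86). No allogeneic CD8 or other T cell had more than 1 UMI of either gene, so those ratios come from scattered single UMIs.

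Ccl8 (ENSMUSG00000009185, chr11:82115185-82116799) and Ccl12 (ENSMUSG00000035352, chr11:82101845-82103400), neighbouring genes whose proteins attract monocytes and other leukocytes, were the macrophage chemokines of the set. Ccl8 stood at 25.7 CPM (22.1 to 29.8) in the allogeneic and 0.884 CPM (0.634 to 1.20) in the syngeneic library, a log2 ratio of 4.86 (4.37 to 5.39). Ccl12 stood at 13.4 CPM (10.8 to 16.4) and 0.345 CPM (0.197 to 0.560), a log2 ratio of 5.28 (4.50 to 6.14). With only barcodes at least as deep as the shallowest syngeneic one, the log2 ratio was 3.36 (2.69 to 4.02) for Ccl8 and 2.2 (0.68 to 3.56) for Ccl12, and 0 allogeneic macrophages were left.

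In allogeneic macrophages Ccl8 was seen in 25 of 30 cells, 83.3% (65.3 to 94.4%), with 104 UMIs and 5728 CPM (4681 to 6941). The highest cell had 18 UMIs, and without it the level was 5068 CPM. Ccl12 was seen in 15 of those cells with 52 UMIs and 2864 CPM (2139 to 3756). In allogeneic B cells, at a median of 2310 UMIs against 524 in the macrophages, Ccl8 and Ccl12 were each seen in 3 of 337 cells, 0.890% (0.184 to 2.58%), at 3.50 CPM. Thinned to 500 UMIs a cell, Ccl8 was seen in 13 of 17 macrophages and Ccl12 in 9, with 13 shallower macrophages left out.

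Only 2 syngeneic cells passed the macrophage gate, and they held 3 Ccl8 UMIs and 1 Ccl12 UMI, so no ratio within macrophages was formed. Of the 41 syngeneic Ccl8 UMIs, 26 lay in mixed barcodes, and of the 179 allogeneic ones, 33. Ccl8 and Ccl12 shared 21 allogeneic cells, 31.8% of the Ccl8 cells and 60% of the Ccl12 cells, and 2 syngeneic cells, 11.1% and 14.3%.

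In lymphocytes Ccl8 stayed at background by the rule above. Allogeneic CD8 T cells had 15 UMIs, 9.82 CPM, and their log2 ratio to syngeneic CD8 T cells, with 4 UMIs and 0.311 CPM, was 4.98 (3.33 to 7.03). Yet 8 of those 15 UMIs came from a single barcode that also had 7 macrophage-marker UMIs, and the class was 2.80-fold (0.793 to 15.1) over B cells. Other T cells had 3.71 CPM in the allogeneic and 0.307 CPM in the syngeneic library, a log2 ratio of 3.60 (1.70 to 5.78), and after subtraction of the B cell level of each library it was 0.29.

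Ccl17 (ENSMUSG00000031780, chr8:94810453-94812036) and Ccl22 (ENSMUSG00000031779, chr8:94745590-94751699), ligands of CCR4 that mature dendritic cells secrete toward regulatory and helper T cells, lay mainly in dendritic cells in the syngeneic library. Ccl22 stood at 5.89 CPM (4.23 to 7.99) in the allogeneic and 25.8 CPM (24.4 to 27.3) in the syngeneic library, a log2 ratio of -2.13 (-2.62 to -1.68). Ccl17 stood at 5.17 CPM (3.62 to 7.16) and 2.87 CPM (2.40 to 3.40), a log2 ratio of 0.85 (0.28 to 1.39), or 0.17 (-0.73 to 0.97) without the highest cell of each library.

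Dendritic cells had Ccl22 in 5 of 13 allogeneic cells, 18 UMIs and 432 CPM (256 to 683), and in 36 of 51 syngeneic cells, 1022 UMIs and 2009 CPM (1887 to 2136). A single syngeneic cell held 475 of the 1022 UMIs, and without each library's highest dendritic cell the levels were 200.4 CPM in the allogeneic and 1108 CPM in the syngeneic library. Ccl17 was seen in 3 of the 13 allogeneic dendritic cells, 120.0 CPM (39.0 to 280), or 58.8 CPM and no longer above background without the highest cell, and in 14 of the 51 syngeneic ones, 236 CPM (196 to 282). With 13 allogeneic dendritic cells, fewer than the 20 required, no ratio within the class was formed.

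Most allogeneic Ccl17 did not come from the dendritic gate. A single monocyte-gated cell held 21 of the 36 UMIs, together with 6 Ccl22 and 8 Cxcl10 UMIs, and it had 22 monocyte-marker and 2 dendritic-marker UMIs. Both genes were seen in 3 allogeneic cells, 23.1% of the Ccl17 and 15.0% of the Ccl22 cells, and in 14 syngeneic cells, 53.8% and 9.52%.

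Ccl22 UMIs in syngeneic lymphocytes were spread thinly, at 33 in CD8 T, 15 in activated T, 23 in other T and 20 in B cells. All 33 CD8 T cells and all 23 other T cells with the gene had exactly 1 UMI. Fscn1, used as dendritic tracer, is itself a dendritic marker of the gate, so these ratios are partly set by the gate. Per 100 UMIs of Fscn1, Ccl22 stood at 39.0 (23.0 to 64.1) in other T cells and 40.0 (22.6 to 68.4) in B cells, against 42.7 (39.7 to 46.0) in dendritic cells. CD8 T cells at 82.5 (50.4 to 134) lay above it and activated T cells at 75 (35.7 to 154) overlapped it.

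Xcl1 (ENSMUSG00000026573, chr1:164931644-164935527), the lymphotactin that CD8 T and NK cells release toward XCR1-bearing dendritic cells, was lower in the allogeneic library. It had 9 UMIs in 9 allogeneic cells, 1.29 CPM (0.591 to 2.46), against 932 UMIs in 295 syngeneic cells, 20.1 CPM (18.8 to 21.4), a log2 ratio of -3.96 (-5.09 to -3.03). No allogeneic class stood above background, and no allogeneic cell had more than 1 UMI.

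Syngeneic NK cells had Xcl1 in 10 of 16 cells, 66 UMIs and 757 CPM (586 to 964), with 29 UMIs in the highest cell. The single allogeneic NK cell had 0. Activated T cells of the syngeneic library held 336 UMIs in 53 of 896 cells, 51.9 CPM (46.5 to 57.8), of which 169 (50.3%) were in a single cell, and 25.8 CPM without it. CD8 T cells were more even, with 197 UMIs in 131 of 2335 cells, 15.3 CPM (13.3 to 17.6), of which 16 cells had 3 or more and the highest 6. B cells, as background, had 14 UMIs in 14 of 1241 cells, 1.87 CPM (1.02 to 3.14).

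The difference held within T cell classes. Activated T cells had 3 allogeneic UMIs against 336 syngeneic UMIs, a log2 ratio of -4.16 (-6.44 to -2.60), and CD8 T cells 2 against 197, a log2 ratio of -3.55 (-6.61 to -1.68). Other T cells had 0 allogeneic UMIs against 50 syngeneic UMIs, a log2 ratio with an exact 95% upper bound of -1.11. The cell with 169 Xcl1 UMIs was the cell with 176 Ccl4 and 21 Ccl3 UMIs, and 23 syngeneic cells had both Xcl1 and Ccl4, 7.80% of the Xcl1 and 18.4% of the Ccl4 cells.

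**Figure D4:**
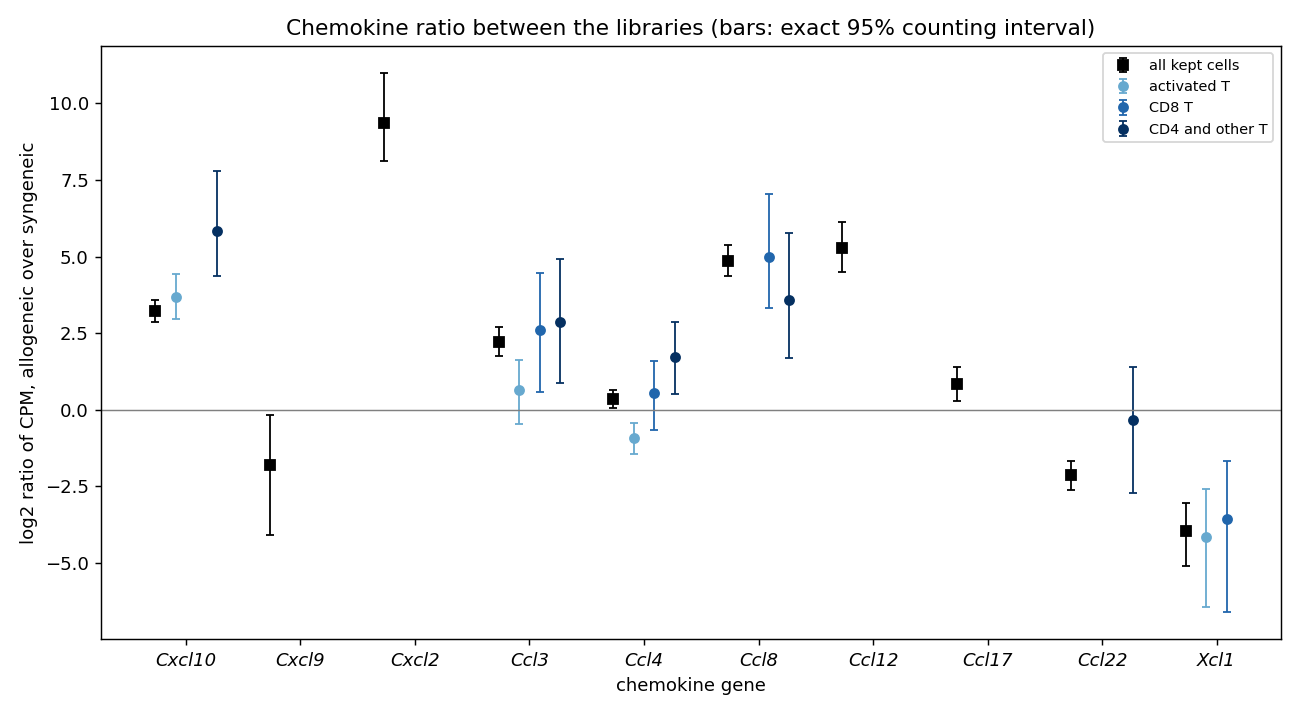
Log2 ratio of CPM, allogeneic over syngeneic, for each chemokine over all kept cells (squares) and in 3 T cell classes (circles), with exact 95% counting intervals, where both libraries had at least 1 UMI and together at least 10. Cxcl10 lies above 0 and Xcl1 below 0 in every class drawn, while Ccl4 lies below 0 in activated T cells (-0.92) and above 0 in other T cells (1.73).

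Counted by class, 3 of 6 chemokines with at least 10 UMIs in CD8 T cells were more than 2-fold higher in the allogeneic library and 1 lower, against 10.4% and 5.76% of all genes. In activated T cells it was 1 higher and 1 lower of 5, against 11.5% and 6.23%. In other T cells it was 4 higher and 1 lower of 6, against 11.4% and 5.73%, and in B cells 0 higher and 1 lower of 2, against 11.6% and 11.2%.

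Other chemokine genes, of which 15 of 21 had at least 10 UMIs over all kept cells, were more than 2-fold higher in 9 cases and lower in 2, against 13.9% and 6.25% of all genes, taking the floor of 3 UMIs where a library had 0. Ccl6 (64.4 CPM in the allogeneic against 4.64 CPM in the syngeneic library) and Ccl9 (28.2 against 2.74 CPM), both myeloid genes, were among the higher ones. Ccl5, a chemokine of cytotoxic cells, was lower, at 201 against 465 CPM. Of its 21543 syngeneic UMIs, 8412 lay in the 51 dendritic cells. Its log2 ratio was -0.28 in CD8 T, -0.61 in activated T, -1.84 in other T and -1.23 in B cells. In allogeneic monocytes Ccl6 led this list with 704 CPM, and in allogeneic and syngeneic dendritic cells Ccl5 led it with 4896 and 16533 CPM.

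Of the chemokine receptors, 18 of 21 were measured, 4 were more than 2-fold higher and 7 lower, against 13.9% and 6.25% of all genes. Cxcr2, the receptor for Cxcl2 and itself a neutrophil marker of the gate, stood at 25.01 CPM in the allogeneic and 0.625 CPM in the syngeneic library. Ccr7, the homing receptor of naive T cells and migratory dendritic cells, stood at 394 and 256 CPM. Cxcr3, the receptor for Cxcl10 and Cxcl9, stood at 16.2 and 41.8 CPM, and at 31.0 and 49.7 CPM within activated T cells, a log2 ratio of -0.68 (-1.25 to -0.16). Xcr1, the receptor for Xcl1 and itself a dendritic marker of the gate, had 3 allogeneic and 54 syngeneic UMIs. That is 0.431 and 1.16 CPM, a log2 ratio of -1.43 with an interval that includes 0 (-3.76 to 0.19).

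Interferon-induced genes, the wider programme to which Cxcl10 and Cxcl9 belong, were more than 2-fold higher for 7 of 12 genes and lower for 0, against 13.9% and 6.25% of all genes. Ifit3 stood at 292 CPM in the allogeneic and 24.9 CPM in the syngeneic library and Irf7 at 298 and 74.0 CPM, while Irf1 (116 and 102 CPM) stayed within 2-fold. In activated T cells 6 of 12 were higher, against 11.5% of all genes, with log2 ratios of 3.53 for Ifit3 and 0.01 for Irf1.

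The genes with the pattern most like each chemokine were ranked by Pearson correlation of log2(CPM + 10) over 16 class sums, as a description over sums that share libraries and depth. Ccl8 was nearest to Marco (r = 0.998), Amigo1 (0.996) and Cd209b (0.995), and Ccl12 to Igf1 (0.997), Marco (0.996) and Hbegf (0.995). Marco is itself a macrophage marker of the gate, so its pattern over class sums is partly set by the gate. The allogeneic sum was the only macrophage sum, because the syngeneic gate had 2 cells, under the minimum of 10. Cxcl2 was nearest to Wfdc21 (0.955), Lcn2 (0.954) and Trem1 (0.943), and Cxcl10 to Ifi202b (0.884), Phf11d (0.877) and Ms4a6d (0.855). Xcl1 was nearest to Fam81a (0.976), Fam64a (0.962) and Cd160 (0.957), and Ccl22 to Cxcl16 (0.966), Gm42418 (0.960) and Adam23 (0.949). Cxcl9 was nearest to Slamf8 (0.988), Ccl17 to Agap1 (0.978), Ccl3 to Slc52a3 (0.884) and Ccl4 to Rilpl2 (0.834).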

How the data were processed

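Per the labels' protocols, lymph node cells of both groups went through Chromium 3′ droplet chemistry, which tags transcript ends. For each of the 2 libraries the authors deposited whole-number UMI counts, genes by barcodes, not normalised. The submitters' processing notes name Cell Ranger 2.2.0, Seurat 2.3.4, STAR and mm10, without roles, and the sources used here do not say how barcodes were picked.

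Barcodes were kept with at least 200 genes, at most 10% mitochondrial UMIs and under 50% haemoglobin UMIs. In the allogeneic library 1467 of 3500 were removed, 1071 of them for few genes. Classes came from marker UMIs, and Trac, a T cell marker, was not matched in the gene list. No doublet caller was run: barcodes with markers of several lineages were kept apart as mixed. Doublets within a class, between myeloid classes, or with few UMIs of the second lineage, remain. UMIs were summed by class, with exact Poisson, Clopper-Pearson and conditional binomial 95% intervals (scipy 1.17.1, numpy 2.4.6, pandas 2.3.3, python 3.11.15). Where a library had 0 UMIs of a gene, a floor of 3 UMIs over the class was used to count genes past 2-fold, and the text gives the exact bound of the ratio. UMIs collapse PCR copies, and intervals cover counting error only. Scripts were tested on simulated data.

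The members, gene lists and gates were chosen with earlier results of these data known. All 10 chemokines are named, with the 3 most alike genes each (fewer are printed for 4 of them), and of the other lists up to 4 genes with the highest CPM in a class; Cxcr2 and Xcr1 were chosen after their values were seen. Ratios within classes needed at least 20 cells in each library and at least 10 UMIs. Alternatives covered gate purity, marker minimum, activation genes, barcode filter, depth, scaling and background subtraction.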

Additional observations from a re-analysis of the deposited data

Results flagged for a closer look

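Chemokine UMIs also appeared in the 1467 allogeneic barcodes that the filter removed, which enter no comparison above. Their levels were 7.55 CPM for Cxcl10, 13.7 CPM for Cxcl2, 24.7 CPM for Ccl4, 23.3 CPM for Ccl8 and 6.18 CPM for Ccl12. The lower bounds of these levels, in the same order, were 3.77, 8.39, 17.3, 16.2 and 2.83 CPM. Each lower bound was above the upper bound of the level of its gene in the whole syngeneic library (2.90, 0.251, 14.1, 1.20 and 0.559 CPM). Ccl4 was also higher in the removed allogeneic barcodes than in the kept ones, at 24.7 CPM (17.3 to 34.2) against 16.7 CPM (13.8 to 19.99), with overlapping intervals.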

How the results depend on the processing

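Of 545 recomputed values, 463 moved by no more than their counting interval, or 1.5-fold for counts. Over all kept cells, thinning each cell to 500 UMIs gave log2 ratios of 3.92 for Cxcl10, 0.87 for Ccl4, 5.52 for Ccl8 and 0.53 for Cxcl9, whose sign turned (interval -5.19 to 4.17), and 9 combinations above background in place of 24. Lost in the allogeneic library were Cxcl10 and Ccl4 in activated T cells and Ccl17 and Ccl22 in dendritic cells. Cxcl10 in macrophages and Ccl3 and Ccl4 in monocytes of that library were also lost. Lost in the syngeneic library were Xcl1 in CD8 T cells, Xcl1 and Ccl3 in activated T cells, and Ccl3 and Ccl4 in NK cells. Cxcl9 in monocytes and dendritic cells and Cxcl2 in dendritic cells of that library were lost too. The filter of 500 genes and 5% mitochondrial UMIs gave 3.91 for Ccl8, 4.41 for Ccl12 and -2.69 for Ccl22. With only barcodes as deep as the shallowest syngeneic one, Ccl8 stood at 3.36 and Ccl12 at 2.2, and 18 combinations stood above background. The 6 lost were Ccl8, Ccl12 and Cxcl10 in allogeneic macrophages, of which 0 were that deep, Cxcl10 and Ccl4 in allogeneic activated T cells, and Ccl17 in allogeneic dendritic cells. Without the highest cell of each library and class, an alternative chosen after seeing the data, Cxcl10 stood at 3.89, Ccl8 at 5.42 and Ccl17 at 0.17, and 18 combinations stood above background. The 6 lost were all allogeneic: Cxcl10 and Ccl4 in activated T cells, Ccl3 and Ccl4 in monocytes, Ccl17 in dendritic cells and Cxcl10 in macrophages. At a gate purity of 90%, activated T cells gave 4.995 for Cxcl10 and -1.81 for Ccl4, and thinned they gave 2.64 for Cxcl10. That purity lost 5 combinations, among them Ccl3 and Ccl4 in syngeneic NK cells. The others were Cxcl10 and Ccl4 in allogeneic activated T cells and Ccl17 in allogeneic dendritic cells. Background subtraction took Ccl8 in other T cells to 0.29. The share of all genes more than 2-fold higher was 6.74% in CD8 T and 7.32% in activated T cells at a minimum of 50 UMIs, and 17.2% in activated T and 17.9% in other T cells at 1 UMI, in place of 10.4%, 11.5% and 11.4%. Median-of-ratios scaling moved all genes by a log2 value of 0.14 in other T cells and by at most 0.080 in the other classes and over all kept cells. The cause of these shifts was not tested. No paired analysis was possible because each group has 1 library. A count of 0 cells with a UMI allows a share of cells with a UMI of up to 0.148% of the 2033 allogeneic cells and 0.0377% of the 7951 syngeneic cells, and a cell without a UMI may still express the gene. The groups cannot be told apart from the libraries, which differ in depth and in barcode selection.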
